A study of Mus musculus with 16 samples.

Results

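The genes described here make bile acids in the liver, move them into and out of hepatocytes, or sense them. They are 10 of the 24011 genes in the deposited count table, chosen by name: the synthesis enzymes Cyp7a1, Cyp8b1 and Cyp27a1, the exporters Abcb11, Abcb4 and Abcc2, the uptake carriers Slc10a1 and Slco1a1, and the nuclear receptors Nr1h4 and Nr0b2. RNA-seq was done on 16 libraries in 4 groups of 4, namely aorta or liver, each cultured with 17β-estradiol (E2) or with ethanol vehicle. All groups came from wild-type female C57BL/6 mice whose ovaries had been removed at an age of 6 to 7 weeks, a week before tissue collection. Whole aortas, or pieces cut from the major lobe of the liver at its tip, were kept ex vivo at 37 °C for 4 h in DMEM with 10 nM E2 or vehicle, so the comparison covers an early response of tissue in culture and not of the living animal. Per the series text, each condition had 2 biological replicates, each with tissue from 4 mice.

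Every group holds libraries with the suffixes o1, o2, n1 and n2. The labels speak of a library kit used with 50 ng RNA and of a poly-A kit used with 600 ng RNA from a single aorta or liver fragment, but no label ties a letter to a kit. The o and n libraries are therefore given apart under those letters, beside values over all libraries. The series text accounts for only 2 replicates a condition, so p-values measure the spread between these libraries, part of which may be technical.

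Bile acids are made from cholesterol. Cyp7a1 starts the main, neutral route and limits its rate, Cyp27a1 oxidizes the sterol side chain and starts the alternative, acidic route, and Cyp8b1 adds the hydroxyl group that makes cholic acid. Bile acids taken up from the blood or newly made are pumped across the canalicular membrane into bile, and bile acids that reach the nucleus activate Nr1h4, the farnesoid X receptor FXR, which induces Nr0b2, the small heterodimer partner SHP, and Abcb11. Nr0b2 in turn dampens Cyp7a1 and Cyp8b1. Estrogens in high dose are known to impair bile flow in rodents.

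RefSeq promoters were found for 9 of the 10 genes. Cyp7a1 had none, so it was not searched for motifs. The 9 genes gave 10 windows because Slc10a1 has 2 start sites. Each window holds the 250 bases before a start, in build GRCm38.p6. The 3 windows printed are those in which a longer nuclear receptor motif was found. In Abcb11 (chr2:69342617-69342866, minus strand) the capitals mark an inverted repeat with 1 base between its arms, the arrangement known from FXR binding. In Nr0b2 (chr4:133553126-133553375, plus strand) and Cyp8b1 (chr9:121916306-121916555, minus strand) they mark a single site of the kind bound by monomeric orphan receptors such as Nr5a2. All run 5′ to 3′ and end at the base before the start.
Abcb11: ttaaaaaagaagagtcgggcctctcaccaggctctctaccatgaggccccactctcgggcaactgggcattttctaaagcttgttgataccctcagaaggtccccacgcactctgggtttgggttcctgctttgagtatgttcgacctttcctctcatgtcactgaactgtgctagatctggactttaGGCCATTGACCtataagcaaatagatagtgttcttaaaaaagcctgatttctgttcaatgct
Nr0b2: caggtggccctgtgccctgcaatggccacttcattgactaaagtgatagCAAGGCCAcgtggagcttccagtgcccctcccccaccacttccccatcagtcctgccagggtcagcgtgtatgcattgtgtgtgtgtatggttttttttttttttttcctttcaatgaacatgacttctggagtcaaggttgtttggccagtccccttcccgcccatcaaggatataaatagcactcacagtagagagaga
Cyp8b1: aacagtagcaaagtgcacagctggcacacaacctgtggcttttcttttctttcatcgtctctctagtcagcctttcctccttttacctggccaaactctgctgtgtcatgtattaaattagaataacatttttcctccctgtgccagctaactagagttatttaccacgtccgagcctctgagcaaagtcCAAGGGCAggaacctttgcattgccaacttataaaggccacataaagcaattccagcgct

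Both strands were searched for 4 motifs in all 32851 RefSeq mouse windows. The inverted repeat GGNCANTGNCC was in 0.575% of all windows and in 1 of the 10, that of Abcb11, 62 to 52 bases before the start. The single site CAAGGNCA was in 5.53% of all windows and in those of Nr0b2 (201 to 194 bases before the start) and Cyp8b1 (60 to 53 bases). A full estrogen response element, GGTCANNNTGACC, was in 0.0639% of all windows and in 0 of the 10 windows, which do not include Cyp7a1. One arm of it, GGTCA, was in 35.2% of all windows and in 7 of the 10, those of Abcb11, Nr0b2, Slco1a1, Nr1h4, Abcc2 and both of Slc10a1. In Abcb11 this arm, 56 to 52 bases before the start, lies inside the inverted repeat. These matches describe letters in a window and not binding.

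Counts assigned to genes ran from 3896733 to 13078032 in the liver libraries and from 6042073 to 19823982 in aorta. Against the labelled tissues, 6 smooth muscle markers summed to 10505 to 36204 CPM in aorta and 119 to 306 CPM in liver, and 12 hepatocyte markers to 66080 to 158310 CPM in liver and 81.6 to 789 CPM in aorta. The bile acid genes together took 8805 to 39420 counts in a liver library and 78 to 342 in an aorta library. Ribosomal Rn45s held 25.7% to 34.5% of gene counts in the liver o libraries and 2.94% to 5.52% in the liver n libraries. Levels below are CPM (each count relative to a library total of 1e+06 counts, scaled by TMM within a tissue) and are listed in the order o1, o2, n1, n2.

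No bile acid gene passed the test for E2 in liver. Across the 11726 genes tested by edgeR, 0 passed an adjusted p of 0.05 (0%), 502 had an unadjusted p under 0.05 (4.28%), and the bile acid genes gave 0 of 10 on either count. Of the 10, 4 were higher and 6 lower with E2, with a median log2 fold change of -0.02 against -0.01 over all genes tested; Abcb11, Nr1h4 and Nr0b2 turned from negative to positive with DESeq2 or RLE scaling. DESeq2 and limma voom also called 0 of all genes.

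**Figure D1:**
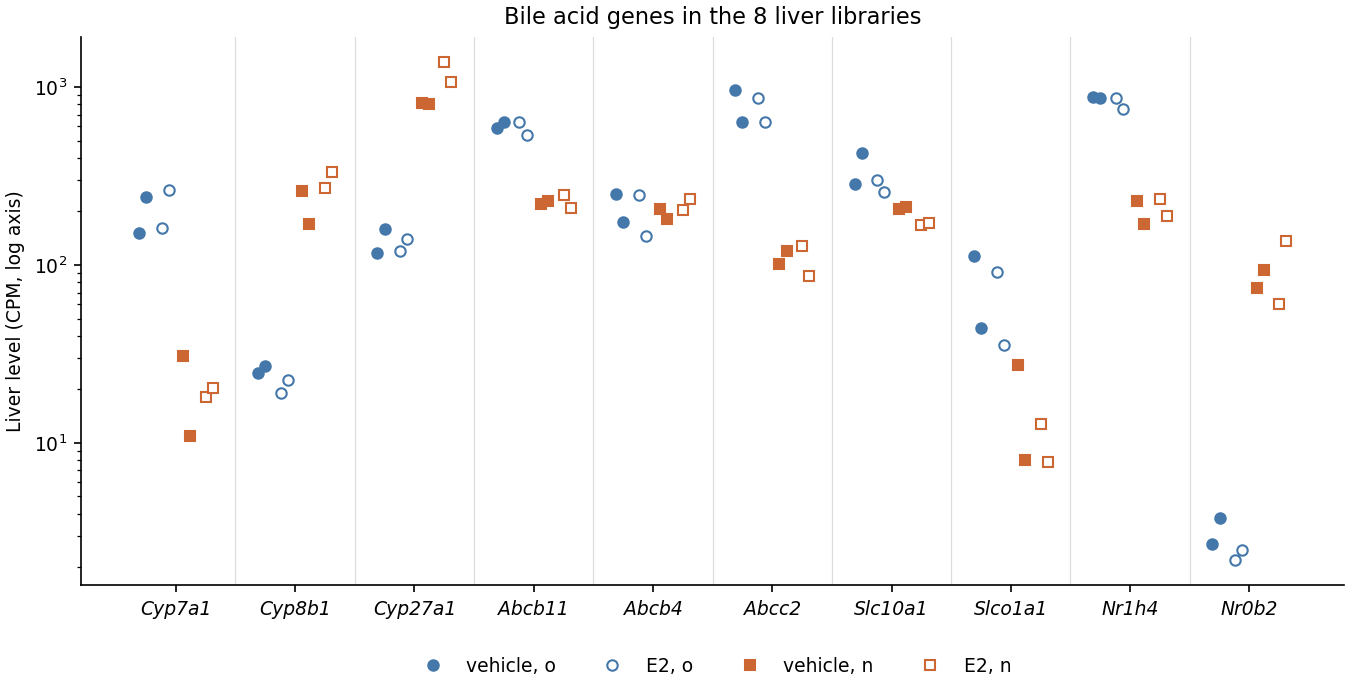
Levels of the 10 bile acid genes (CPM, log axis) in each of the 8 liver libraries; filled marks are vehicle, open marks E2, circles o libraries and squares n libraries. The o and n libraries sit apart for every gene but Abcb4, as for 71.7% of all genes tested. Filled and open marks of a letter overlap for 7 of the 10 genes in o and 7 in n. Of all genes tested, 25.8% did not overlap in o and 47.6% in n.

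Among the synthesis enzymes, Cyp7a1 was at 150, 241, 30.9 and 11.0 CPM with vehicle. With E2 it was at 162, 262, 18.1 and 20.4 CPM. The 4 o libraries were all higher than the 4 n libraries, and within each letter the E2 and vehicle values overlapped. The log2 fold change for E2 was 0.0022 ± 0.27 (SE; 95% interval -0.58 to 0.58).

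Cyp27a1 was at 116, 159, 809 and 801 CPM with vehicle and at 120.3, 139.5, 1387 and 1065 CPM with E2. Both E2 n libraries were above both vehicle n libraries, as for 24.5% of all genes tested, while the o values overlapped. Over all libraries the log2 fold change was 0.27 ± 0.22 (edgeR quasi-likelihood test with Benjamini-Hochberg adjustment, adjusted p = 0.94). In the n libraries alone it was 0.61 ± 0.21 (unadjusted p = 0.013, adjusted p = 0.222) and in the o libraries -0.07 ± 0.21. Without the E2 n1 library the value was 0.12 over all libraries and 0.40 in n, and without vehicle o2 the value over all libraries was 0.46.

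Cyp8b1, which sets the share of cholic acid, was at 24.7, 26.99, 262 and 170 CPM with vehicle. With E2 it was at 19.0, 22.7, 269 and 334 CPM. E2 values were below vehicle in the o libraries and above vehicle in the n libraries, without overlap in either letter. Taken letter by letter, 12.6% of all genes tested were likewise lower in o and 24.5% higher in n. The log2 fold change was -0.31 ± 0.27 in o and 0.48 ± 0.25 in n, and 0.11 ± 0.23 over all 8. The value in n was 0.20 without the vehicle n2 library and 0.82 without vehicle n1.

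The exporters did not differ with E2 beyond the spread. Abcb11, the bile salt export pump, was at 590, 639, 219 and 230 CPM with vehicle and at 636, 537, 246 and 209.7 CPM with E2. Abcb4, which flips phosphatidylcholine into bile, was at 251, 174, 207 and 182 CPM with vehicle and at 248, 145, 203 and 236 CPM with E2. Abcc2, the canalicular carrier of conjugated bilirubin and other organic anions, was at 957, 639, 101 and 119 CPM with vehicle and at 869, 634, 128 and 87.0 CPM with E2. In each of the 3 genes the E2 and vehicle values overlapped within both letters. Their log2 fold changes were -0.03 ± 0.19 for Abcb11, 0.01 ± 0.19 for Abcb4 and -0.05 ± 0.21 for Abcc2, with 95% intervals that all lay between -0.49 and 0.43.

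The 2 uptake carriers had the most negative log2 fold changes in the fit over all 8 libraries, but not in the o libraries alone, where Nr0b2 was lowest at -0.49. Slc10a1, the sodium-dependent taurocholate carrier NTCP, was at 285, 427, 206 and 211 CPM with vehicle and at 299.9, 256, 168 and 171 CPM with E2. Both E2 n libraries were below both vehicle n libraries, as for 23.1% of all genes tested, and the o values overlapped. The log2 fold change was -0.32 ± 0.20 (95% interval -0.74 to 0.11), which did not pass (edgeR adjusted p = 0.94). It was -0.14 without the vehicle o2 library and -0.17 without E2 o2.

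Slco1a1, a sodium-independent organic anion carrier, was at 112, 44.0, 27.4 and 7.98 CPM with vehicle and at 91.9, 35.3, 12.7 and 7.81 CPM with E2. It was lower with E2 at each of the 4 suffixes, although n1 and n2 were not taken to pair libraries. In each letter the vehicle libraries lay further apart than E2 and vehicle did at either suffix, and the groups overlapped within both letters. The log2 fold change was -0.50 ± 0.31 (95% interval -1.16 to 0.16), and it was -0.06 without the vehicle n1 library. Slco1a1 belongs to a family of similar genes, between which the counting may have split reads.

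The receptors gave no difference beyond the spread either. Nr1h4 was at 879, 871, 228 and 171 CPM with vehicle and at 863, 756, 236 and 187 CPM with E2. Nr0b2, a target of Nr1h4, was at 2.72, 3.76, 74.3 and 93.3 CPM with vehicle and at 2.19, 2.51, 60.3 and 137 CPM with E2. Both genes were lower with E2 in the o libraries without overlap, as were 12.6% of all genes tested, and overlapped in the n libraries. Log2 fold changes were -0.01 ± 0.20 for Nr1h4 and -0.02 ± 0.29 for Nr0b2 (95% interval -0.62 to 0.59).

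**Figure D2:**
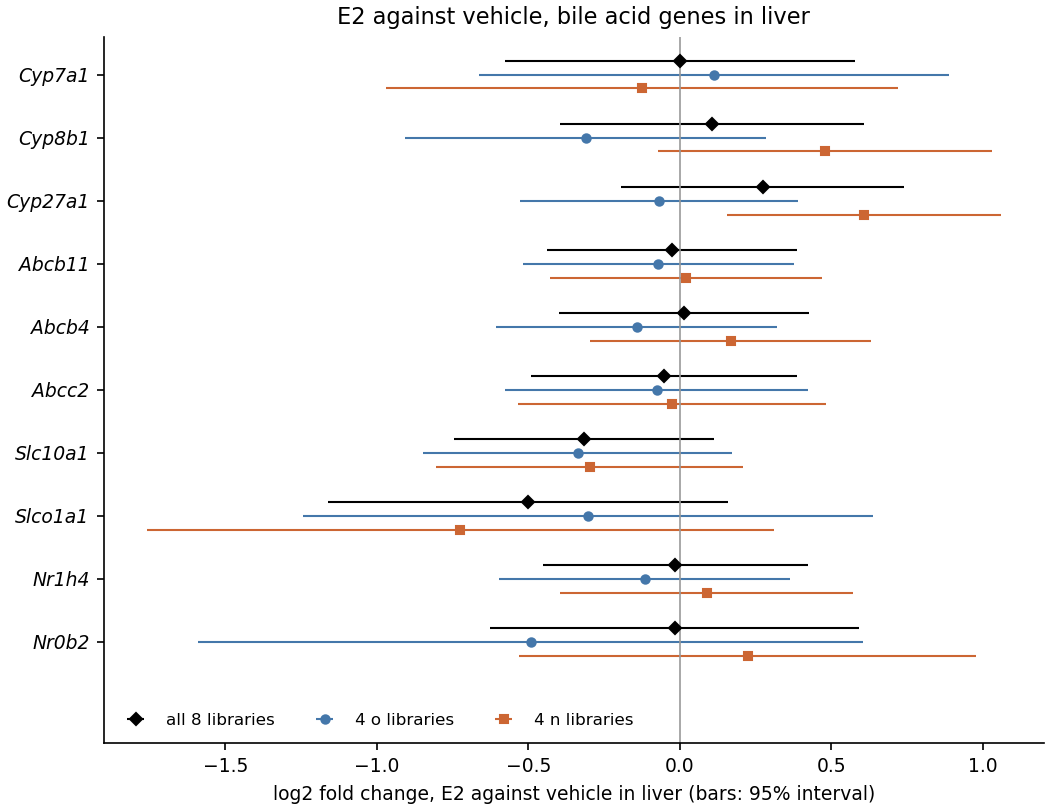
Log2 fold change of E2 against vehicle in liver for each bile acid gene, over all 8 libraries (diamonds), the 4 o (circles) and the 4 n libraries (squares), with 95% intervals. All intervals cross 0 except that of Cyp27a1 in the n libraries, from 0.15 to 1.06.

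Whether the E2 difference itself depended on the letter was tested with an interaction term. None of the 11726 genes passed in edgeR (0%), and 1463 had an unadjusted p under 0.05 (12.5%); DESeq2 called 160 genes, among them none of the 8 bile acid genes for which it gave an adjusted p (none was given for Slco1a1 and Nr0b2). Cyp27a1 had 0.68 ± 0.29 more log2 difference in n than in o (95% interval 0.03 to 1.32; edgeR unadjusted p = 0.0409, adjusted p = 0.387). Cyp8b1 had 0.79 ± 0.37 more (95% interval -0.02 to 1.60; edgeR unadjusted p = 0.0551, adjusted p = 0.407). The other 8 genes had unadjusted p of 0.263 or more, and 8 of the 10 differences were positive, with a median of 0.15 against -0.07 over all genes. Across 11671 genes the E2 log2 fold change over all 8 liver libraries had a Spearman rho of -0.29 with transcript length, and its part in the values of single genes was not tested.

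Tested within one letter, 0 of 11726 genes passed (0%) in either. At an unadjusted p under 0.05 there were 694 genes in o (5.92%) and 1684 in n (14.4%), among them 0 and 1 of the bile acid genes. By plain overlap, 3 of 10 bile acid genes separated E2 from vehicle in the o libraries (25.8% of all genes tested did) and 3 of 10 in the n libraries (47.6%). The genes separated in o were Cyp8b1, Nr1h4 and Nr0b2, all lower with E2, as were 12.6% of all genes (13.2% were higher). In n they were Cyp8b1 and Cyp27a1, higher, and Slc10a1, lower, where 24.5% of all genes were higher and 23.1% lower.

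Markers of liver cell types were set beside these values. The summed CPM of 12 hepatocyte markers was 92641 to 106888 in the vehicle n libraries and 151838 to 158310 in the E2 n libraries, against 72381 to 98796 and 66080 to 68970 in the o libraries. Of these 12, 11 were higher with E2 over all 8 libraries (median log2 0.17), and 9 of 9 Kupffer cell and macrophage markers were lower (median -0.53), none past the threshold. The other lists tested were also mostly lower, with 5 of 5 lymphocyte markers (median -0.60), 7 of 7 of sinusoidal endothelium (-0.25), 6 of 7 of cholangiocytes (-0.29) and 5 of 8 of stellate cells and fibroblasts (-0.08), but 4 of 5 smooth muscle markers were higher (0.10), again none past the threshold. In the E2 n libraries, where the hepatocyte sum was higher, Cyp27a1 and Cyp8b1 were higher without overlap and Slc10a1 was lower without overlap, and the other 7 genes overlapped. The E2 n libraries also held less Rn45s (2.94% and 3.83% of gene counts) than the vehicle n libraries (5.48% and 5.52%), and reads outside genes were 48.0% in E2 n1 against 59.9% to 62.2% in the other 3 n libraries. The part of cell make-up and of these library differences in the E2 values was not tested. In bulk samples such as these, fewer cells of a type and less RNA per cell cannot be told apart.

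The bile acid genes stood far apart between the o and n libraries. Over the 8 liver libraries, 8 of the 10 bile acid genes differed between n and o by edgeR at an adjusted p of 0.05 and more than 1 on the log2 scale, but so did 69.5% of all genes tested (33.7% higher and 35.7% lower in n). The 3 higher in n were Nr0b2, 31.6-fold (log2 4.98 ± 0.34), Cyp8b1, 10.9-fold (3.45 ± 0.27), and Cyp27a1, 7.43-fold (2.89 ± 0.26). Lower in n were 5 genes: Cyp7a1 10.2-fold (log2 -3.35 ± 0.32), Abcc2 7.10-fold, Slco1a1 5.12-fold, Nr1h4 4.10-fold and Abcb11 2.65-fold. The edgeR adjusted p of these 8 ran from 7.94e-10 for Nr0b2 to 4.74e-05 for Slco1a1. Slc10a1 was lower in n by less than the fold threshold (log2 -0.74 ± 0.22, adjusted p = 0.00598), and Abcb4 did not pass (0.02 ± 0.24, 95% interval -0.49 to 0.52). Without overlap between the letters were 9 of the 10, against 71.7% of all genes (35% higher and 36.6% lower in n).

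What the genes higher in n shared was short, GC-rich transcripts. Nr0b2 (1132 nt, 57.8% GC), Cyp8b1 (1950 nt, 54.8%) and Cyp27a1 (1892 nt, 53.5%) have the highest GC content of the 10. Cyp7a1 (4172 nt, 39.7%) and Slco1a1 (3904 nt, 38.5%) have the lowest, and Abcc2 is the longest at 8027 nt. Across 11671 genes, which are not independent replicates, the n against o difference had a Spearman rho of 0.56 with GC content and -0.57 with transcript length. Over the 10 bile acid genes, rho was 0.95 with GC content and -0.73 with length, given as a description. Nr1h4 (2013 nt, 47.2%) and Slc10a1 (1749 nt, 47.7%) were lower in n although short.

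**Figure D3:**
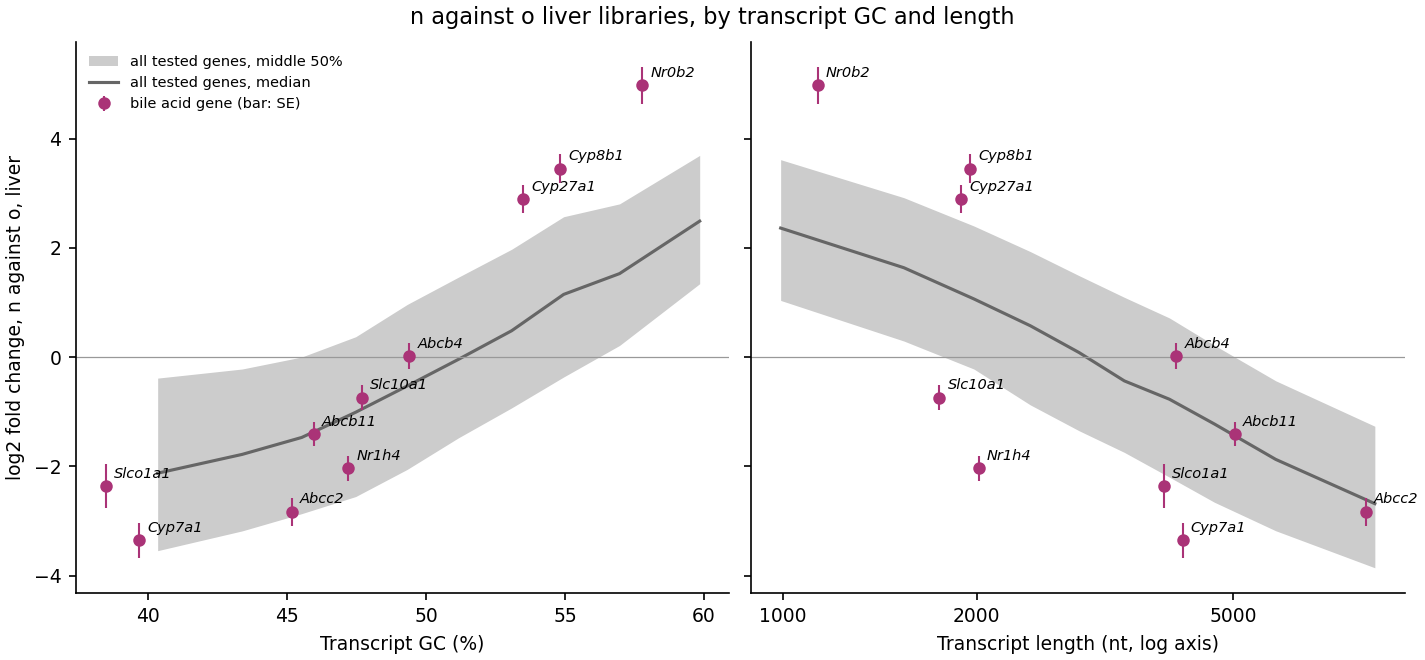
Log2 fold change of n against o liver libraries (bars: SE) against transcript GC content (left) and length (right, log axis) for the 10 bile acid genes, with the median and middle 50% of all tested genes in 10 bins of equal size. Median differences of all genes go from -2.12 in the bin lowest in GC to 2.49 in the highest, and Nr0b2 and Cyp7a1 lie at the ends of the bile acid genes.

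The order of the levels therefore turned on the letter. Per kilobase of transcript, the o libraries put Nr1h4 first at 418 ± 28.8 CPM per kb (SD, n = 4, vehicle and E2 together). Then came Slc10a1 at 181 ± 43.3, Abcb11 at 119 ± 9.55, Abcc2 at 96.5 ± 20.4, Cyp27a1 at 70.6 ± 10.3, Abcb4 at 50.1 ± 13.0 and Cyp7a1 at 48.9 ± 13.4 CPM per kb. Slco1a1 at 18.1 ± 9.51, Cyp8b1 at 12.0 ± 1.75 and Nr0b2 at 2.47 ± 0.602 CPM per kb were last. Neighbours from Abcb11 to Cyp7a1 overlapped one by one, as did Slco1a1 and Cyp8b1; the other neighbours did not.

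In the n libraries Cyp27a1 was first at 537 ± 146 CPM per kb (SD, n = 4), clear of the rest. Cyp8b1 at 133 ± 34.5, Slc10a1 at 108 ± 12.9, Nr1h4 at 102 ± 15.6, Nr0b2 at 80.6 ± 29.6, Abcb4 at 50.7 ± 5.38 and Abcb11 at 45.0 ± 3.10 CPM per kb followed, each overlapping its neighbour. Abcc2 at 13.6 ± 2.32 stood apart from both neighbours, and Cyp7a1 at 4.81 ± 1.98 and Slco1a1 at 3.58 ± 2.36 CPM per kb overlapped at the bottom. Cyp8b1 and Nr0b2 were at the bottom of one order and among the top 5 of the other, while Abcb4 was sixth in both, at near the same level.

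All 10 genes were lower in aorta than in liver with vehicle, without overlap, where 23.4% of the 12607 genes tested were called lower, 24.1% higher and 47.5% either way. By overlap alone, 13.8% of all genes were lower without overlap, 12.6% higher and 26.5% either way. The median log2 fold change of the 10 was -9.60, against 0.05 over all genes. Aorta vehicle counts of Cyp27a1 were 13, 65, 211 and 164, and those of Cyp8b1 0, 18, 79 and 20, so both were seen mainly in n libraries. They had the smallest gaps, 80.0-fold for Cyp27a1 (log2 -6.32 ± 0.37; edgeR adjusted p = 9.12e-08) and 94.6-fold for Cyp8b1 (-6.56 ± 0.53).

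Among the exporters and carriers, log2 fold changes were -8.21 ± 0.51 for Abcb4, -8.34 ± 0.47 for Slc10a1 and -9.69 ± 0.51 for Abcc2. For Nr1h4 the value was -9.51 ± 0.75. Abcb11 gave -10.76 ± 0.63, but its aorta vehicle counts were 9, 3, 3 and 1, and it had too few for the E2 test within aorta. These values rest on 16 (Abcb11) to 75 (Slc10a1) counts over the 4 aorta vehicle libraries. Cyp7a1 had 1 count in all 4 together, which is 0.0151% of its liver level (exact 95% interval 0.000381% to 0.0840%, counting error only). Slco1a1 and Nr0b2 had 2 counts each, 0.0919% (0.0111% to 0.333%) and 0.0899% (0.0109% to 0.325%) of liver. These shares pool the letters and use raw gene totals without TMM. By letter, with TMM, Cyp7a1 was at 0.0359% in o and 0% in n. Slco1a1 was at 0.0909% and 0.170%, and Nr0b2 at 0% and 0.0537%.

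The aorta counts were set beside markers of hepatocytes. As a share of the liver level in the same letter, 12 hepatocyte markers had a median of 0.212% in o (0.0664% to 3.99%) and 0.0583% in n (0.0188% to 0.933%). Cyp27a1 stood at 1.61% and 1.00% and Cyp8b1 at 1.39% and 0.826%, and the other 8 genes at no more than 0.508% in o and 0.431% in n. The part of liver RNA in the aorta counts was not tested.

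**Figure D4:**
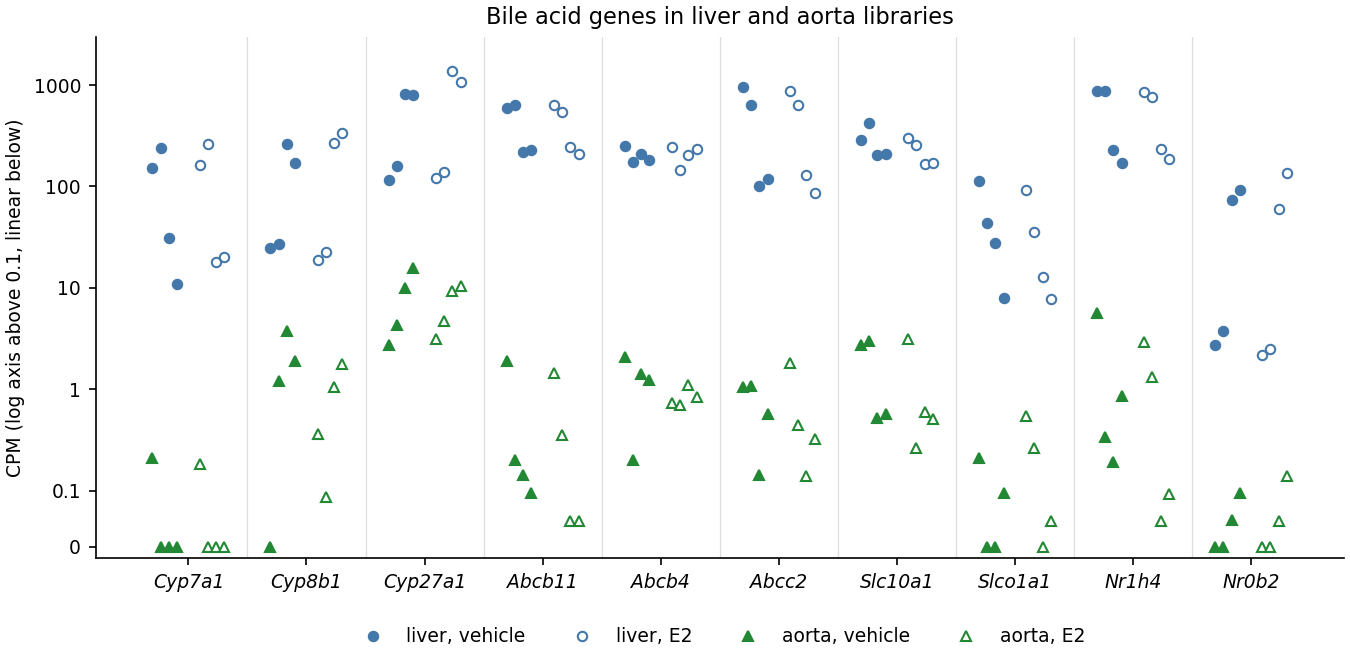
CPM of each bile acid gene in all 16 libraries (log axis above 0.1, linear below); circles are liver, triangles aorta, filled vehicle and open E2, with o1, o2, n1 and n2 from left to right. Every liver library is above every aorta library for all 10 genes.

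In aorta 6 of the 10 genes had enough counts for the test of E2, and 0 of the 6 passed, as 0 of 13698 genes did by edgeR (0%); 495 genes had an unadjusted p under 0.05 (3.61%) and DESeq2 called 24, among them no bile acid gene with an adjusted p (none was given for Abcb4 and Abcc2). The best counted, Cyp27a1, had 17, 54, 203 and 222 counts with E2 and a log2 fold change of -0.14 ± 0.26 (95% interval -0.73 to 0.44). Cyp8b1 had 2, 1, 23 and 38 counts and a value of -1.19 ± 0.65, and Abcb4, Abcc2, Slc10a1 and Nr1h4 ran from -0.73 to -0.26. All 6 values were negative, but Cyp27a1, Abcb4, Abcc2 and Slc10a1 each turned positive when 1 library was left out. Beside this, the summed CPM of the hepatocyte markers in aorta was 789, 259, 130.2 and 147 with vehicle and 498, 173, 101 and 81.6 with E2, lower at each suffix; its part was not tested. Cyp7a1, Abcb11, Slco1a1 and Nr0b2 were not tested in aorta.

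The other genes of the pathway likewise gave no call with E2 in liver. Of 19 further synthesis genes tested 10 were higher and 9 lower (median log2 0.06), of 18 transport genes 7 and 11 (-0.08) and of 17 regulators 11 and 6 (0.04), with 0 passing in each list. Of these, only Hnf4a, a master regulator of hepatocyte genes, had an unadjusted p under 0.05, as 4.28% of all genes tested did. Hnf4a was at 79.1, 96.4, 42.5 and 38.2 CPM with vehicle and 62.9, 60.6, 33.3 and 16.7 CPM with E2. It was lower with E2 without overlap in both letters, by a log2 fold change of -0.58 ± 0.23 (edgeR unadjusted p = 0.0224, adjusted p = 0.94). Taken singly, 12.6% of all genes in o and 23.1% in n were lower without overlap. The share of all genes lower without overlap in both letters was not counted.

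The remaining genes with the lowest p in each list and direction were not past the threshold. In synthesis these were Cyp2c70 (log2 fold change 0.41 ± 0.29), which makes the muricholic acids of mice, Akr1c6 (0.33 ± 0.24), Akr1d1 (-0.51 ± 0.25), the steroid 5β-reductase, and Cyp39a1 (-0.40 ± 0.29). In transport they were the basolateral exporters Abcc3 (0.26 ± 0.22) and Abcc4 (-0.67 ± 0.35), with Abcc6 (0.23 ± 0.22) and Slc10a5 (-0.40 ± 0.26). Among regulators they were the oxysterol receptor Nr1h3 (0.45 ± 0.22), Foxa2 (0.43 ± 0.25) and Rxra (-0.26 ± 0.21), the shared dimer partner.

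Between the letters, where 33.7% of all genes tested were higher and 35.7% lower in n, 11 of 19 synthesis genes were higher and 3 lower. Higher were Acox2, Cyp2c70, Ch25h, Akr1c6, Acot8, Cyp46a1, Baat, Hsd3b7, Slc27a5, Amacr and Cyp7b1, with log2 values from 1.22 to 4.35. Lower were Akr1d1 (-5.51 ± 0.32), Cyp39a1 and Akr1c14. Of 18 transport genes, Slc10a2, Ephx1, Fabp1, Abcc6 and Slc22a7 were higher (1.51 to 3.87) and Atp8b1, Slc10a5, Abcc4, Abcb1a and Tmem30a lower (-3.49 to -1.07). Of 17 regulators, 7 were higher, namely Foxa2, Nr1i3, Fgfr4, Nr1h3, Nr1h2, Mafg and Cebpb (1.53 to 6.76), and 6 lower, Ppargc1a, Nr5a2, Ppara, Rxra, Nr1d1 and Hnf4a (-5.23 to -1.20). Baat and Slc27a5, which both act in the conjugation of bile acids, were 3.09 ± 0.25 and 3.20 ± 0.31 higher on the log2 scale.

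In aorta against liver, where 23.4% of all genes tested were lower and 24.1% higher, 15 of 18 synthesis genes were lower. In order they were Hsd17b4 at -2.31, Scp2, Cyp39a1, Cyp7b1, Akr1c14, Hsd3b7, Amacr, Slc27a2, Acox2, Baat, Acot12, Akr1c6, Cyp2c70, Slc27a5 at -10.87 and Akr1d1 at -12.25 on the log2 scale. Akr1d1 had 2 aorta counts and stood at 0.0153% of its liver level (exact 95% interval 0.00185% to 0.0552%). Of 18 transport genes 13 were lower, from Abcc4 at -1.27 through Abcg2, Ephx1, Slco2b1, Abcc3, Slc10a5, Slco1a4, Abcg5, Slco1b2, Abcg8 and Fabp1 to Abcc6 at -11.22, with Slc22a7 among them at 0.0890% of liver (3 counts; 0.0183% to 0.260%). Of 17 regulators 11 were lower, among them Rxra at -2.64, followed by Klb, Ppara, Nr1h3, Nr5a2, Fgfr4, Foxa2 and Nr1i3 at -8.88, and also Hnf4a (3 counts; 0.0834% of liver, 0.0172% to 0.244%) and Nr1i2 (2 counts; 0.0871%, 0.0105% to 0.315%). Higher in aorta were Ch25h, which makes 25-hydroxycholesterol (3.05 ± 0.57), Por (1.38 ± 0.28), the multidrug pump Abcb1b (3.23 ± 0.47), Atp8b1 (1.38 ± 0.47) and the clock repressor Nr1d1 (2.19 ± 0.35). No pathway gene tested passed for E2 in aorta, where 11 synthesis, 11 transport and 14 regulator genes had enough counts. Among the genes lower in aorta, Acox2, Baat, Acot12, Akr1c6, Cyp2c70, Slc27a5 and Akr1d1 had too few aorta counts for that test. So did Slc10a5, Slco1a4, Abcg5, Slco1b2, Abcg8, Abcc6 and Slc22a7, and Fgfr4, Foxa2, Hnf4a and Nr1i2. Their gaps to liver rest on few aorta counts, so the sizes of these gaps are poorly fixed. Shares of liver in this paragraph pool the letters and use raw gene totals without TMM.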

How the data were processed

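The authors deposited one table of estimated counts per gene for 16 RNA-seq libraries; nearly all values are whole numbers. Per the submitters' processing notes, Bowtie 0.12.5, HTSeq 0.4.5p7, edgeR 3.4.2 and build mm9 were used; for annotation, strandedness and filtering, the record was not given in the sources used here. Lines that name no gene (8) were left out of library sizes. Values were rounded and fitted with edgeR 4.0.16 in R 4.3.3 (quasi-likelihood test, TMM, filterByExpr with a minimum count of 10 and total of 15, Benjamini-Hochberg adjustment over all genes tested). E2 was fitted within a tissue with the batches o1, o2 and n (so that the o libraries are compared within their suffix), by letter with an interaction term, and the letters and tissues (vehicle) were compared with an added log2 threshold of 1. DESeq2 1.42.0, limma 3.58.1, RLE scaling, no filter, other batch terms, the suffix as a block and each library left out were alternatives. The scripts were tested on simulated data. Transcript length and GC came from GENCODE M21, matched by symbol. They are those of the longest protein-coding transcript of a gene, or else its longest transcript. That transcript may not be the main one in liver. The 10 genes, gene lists, markers and motifs were chosen with earlier results of these data known. Named were all 10 genes, other bile acid genes that passed a test and, for E2 in liver, the 2 with the lowest p in each list and direction, and the 3 genes most like Cyp7a1 and Nr0b2; some items that this rule names are not reported here.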

Additional observations from a re-analysis of the deposited data

How the results depend on the processing

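The bile acid genes were never called for E2 in any alternative run (17 in liver, 16 in aorta, 13 for the difference between letters; DESeq2 gave no adjusted p for Slco1a1 and Nr0b2 in the last and for Abcb4 and Abcc2 in aorta), and all 150 values for aorta against liver kept direction and call, as did 136 of 140 for n against o; there Slc10a1 passed with no fold threshold and Abcb4 changed sign (-0.015 with no filter, -0.17 to 0.13 without one library). For E2 in liver, 137 of 170 values kept their sign. The others changed sign. With no library left out these were Abcb11 0.016, Nr1h4 0.023 and Nr0b2 0.038 with DESeq2, and 0.016, 0.023 and 0.074 with RLE scaling. Nr0b2 was also 0.21 with no batch. Without Rn45s in the library sizes Cyp7a1 was -0.0079 and Nr0b2 0.0036, and Cyp7a1 was -0.0055 with all 16 libraries in one fit. Leaving out one library gave ranges of -0.20 to 0.36 for Cyp7a1, -0.10 to 0.27 for Cyp8b1, -0.086 to 0.084 for Abcb11, -0.058 to 0.14 for Abcb4, -0.18 to 0.047 for Abcc2, -0.11 to 0.082 for Nr1h4, -0.48 to 0.20 for Nr0b2, 0.12 to 0.46 for Cyp27a1, -0.44 to -0.14 for Slc10a1 and -0.72 to -0.058 for Slco1a1. For the E2 difference of n minus o the ranges were -0.81 to 0.68 for Cyp7a1, -0.088 to 0.28 for Abcb11, -0.27 to 0.30 for Abcc2, -0.37 to 0.45 for Slc10a1 and -1.07 to 0.71 for Slco1a1. Cyp27a1 ran from -0.19 to 0.049 in the o libraries and from 0.40 to 0.79 in n, and Cyp8b1 in n from 0.20 to 0.82. In aorta the ranges were -0.23 to 0.064 for Cyp27a1, -0.71 to 0.071 for Abcb4, -0.76 to 0.026 for Abcc2 and -1.03 to 0.10 for Slc10a1. Over all genes, E2 in liver called 6 with no filter and 0 to 1 without one library (1 without vehicle o2 or E2 o2). The difference between letters called 160 with DESeq2, 161 with no filter, 2 with RLE scaling, 1 without Rn45s and 0 to 43 without one library (43 without liver E2 n1). E2 in aorta called 24 with DESeq2 and 0 to 17 without one library (17 without aorta vehicle n2). The causes were not tested. Leaving Rn45s out moved the median of all genes for aorta against liver from 0.05 to 0.19, small beside the 10 values. The suffix as a replicate block called 12 genes in aorta and 0 in liver, where it gave Slco1a1 -0.45, Slc10a1 -0.32 and Cyp27a1 0.27. Same-suffix liver libraries correlated at 0.87 to 0.92 in their deviations from the group means, but within a letter at 0.31 (o) and -0.05 (n), and n2 did not correlate best with its own number, so n1 and n2 were not taken to pair libraries; the fits kept o1 and o2 as batches, and with the letters alone as batches 0 genes were called for E2 in liver. Depth limits Cyp7a1, Slco1a1 and Nr0b2 in aorta, with 1 to 2 vehicle counts.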

Other observations

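With the mean of each letter removed, the level of Cyp7a1 over the 8 liver libraries was close to that of Ogfod3 (Pearson r = 0.98 on log2(CPM + 1)) and Ppp4r1 (0.95), which were among the 3 most alike of 11725 genes compared. For Nr0b2 the most alike were Ctage5 (0.98), Fdft1 (0.97) and Meiob (0.96). Fdft1 makes squalene in cholesterol synthesis. With 8 libraries and so many genes, such values are a description only. Cyp7a1 and Nr0b2 themselves had r = 0.003 with each other. The highest value between 2 of the 10 bile acid genes was 0.70, for Nr1h4 and Slco1a1, and the lowest -0.70, for Cyp7a1 and Abcc2.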
